A study of Mus musculus with 58 samples.

Results

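The genes described here encode the proteasome, the cylinder-shaped protease that degrades ubiquitin-tagged proteins. They are the rows of a mouse RNA-seq count table whose symbol is Psm followed by a letter from a to g and a number, and the rule found 48 of 24028 rows. The immunoproteasome set, 5 genes (Psmb8, Psmb9, Psmb10, Psme1 and Psme2), was set against the other 43. By role the other 43 were 7 subunits of the outer alpha rings of the core (Psma1 to Psma7), 7 of its inner beta rings (Psmb1 to Psmb7), 6 ATPases of the regulatory cap (Psmc1 to Psmc6), 11 non-ATPase subunits of the cap, 3 chaperones that help to build the cap (Psmd5, Psmd9 and Psmd10), 4 chaperones that help to build the core (Psmg1 to Psmg4), 2 further activators (Psme3 and Psme4), the inhibitor Psmf1, and 2 tissue-specific core subunits. Those 2 are Psma8, known from the testis, and Psmb11, known from thymic epithelium. Psmb11 had 19 counts over all 58 libraries and fell under the filter on low counts, and Psma8 had 335, so 47 members were tested.

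The cells were mouse CD4+ T cells that differed in the miR-17~92 cluster, a group of microRNAs made from 1 transcript. KO cells carried a floxed cluster, and TG cells carried a miR-17~92 transgene under the CAG promoter in the Rosa26 locus, behind a stop cassette between loxP sites. Both carried a Cre driven by Cd4, which acts from the thymus onward and so in all T cells that passed the CD4 stage, and WT cells had no Cre named in their labels. Each preparation came from lymph nodes and spleens of 10 pooled mice of both sexes, with an untouched naive CD4 isolation kit. Neither strain nor age is given in the sources used here. Cells were taken naive, or after 24 h or 48 h on plate-bound anti-CD3 with anti-CD28 at 0.2 µg/ml and IL-2 at 50 U/ml. The anti-CD3 coat was either very weak, at 0.25 µg/ml, or weak, at 0.5 µg/ml. The 3 genotypes and 5 states gave 15 groups of 4 libraries each, save the naive KO and naive WT groups, which had 3.

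Background to the genes is as follows. The core holds 3 catalytic beta subunits, Psmb5, Psmb6 and Psmb7, which cut after hydrophobic, acidic and basic residues. Interferon-gamma induces Psmb8, Psmb9 and Psmb10, which take the places of Psmb5, Psmb6 and Psmb7 in newly built particles and so form the immunoproteasome. It also induces Psme1 and Psme2, which together form a ring-shaped activator that caps the core without using ATP. Immune cells hold immunoproteasomes at rest, and the peptides they make are loaded on MHC class I.

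Short stretches of sequence upstream of, or at, the start sites show the motifs searched near the genes on which the results turn. Sequences are from RefSeq (GRCm38.p6), printed 5′ to 3′ on the strand of the gene, in lower case with the motif in capitals.
Psmb8: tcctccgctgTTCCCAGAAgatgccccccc
Psmb9: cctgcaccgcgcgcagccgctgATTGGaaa
Psmb10: gttcccaacgccCACGTGgtggcacgccca
Psme1: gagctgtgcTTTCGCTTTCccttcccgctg
Psmb5: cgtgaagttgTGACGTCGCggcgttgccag
Psmb6: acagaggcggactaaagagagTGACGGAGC
The Psmb8 stretch lies at chr17:34198088-34198117 on the plus strand and holds TTCNNNGAA, the palindrome that STAT factors bind. The Psmb9 stretch, at chr17:34187331-34187360 on the minus strand, holds CCAAT on its other strand. The Psmb10 stretch, at chr8:105938491-105938520 on the minus strand, holds the E-box CACGTG. The Psme1 stretch, at chr14:55578494-55578523 on the plus strand, holds on its other strand the GAAA repeat with a 2-base gap that interferon regulatory factors bind. The stretches of Psmb5, at chr14:54618023-54618052 on the minus strand, and of Psmb6, at chr11:70525327-70525356 on the plus strand, hold TGACNNNGC, the core of the element bound by Nfe2l1 and Nfe2l2. The start of Psmb6 in this table differs from that of the gene model behind the counts. In windows of 250 bases before to 50 bases after the start, searched on both strands, TGACNNNGC was in none of the 6 promoters of the immunoproteasome genes, in 16.2% of 37 promoters of the other members and in 13.1% of all 21680 promoters. The GAAA repeat was in 1 of the 6, in 10.8% of the 37 and in 3.38% of all. TTCNNNGAA was in 1 of the 6 and in 5.41% of the 37, with 7.93% of all, CACGTG was in 1 of the 6 and in 8.11% of the 37, with 8.12% of all, and CCAAT was in 1 of the 6 and in 35.1% of the 37, with 38.2% of all. The NF-kappa-B motif was in no member's promoter and in 1.61% of all. The 2 promoters of Psme2 held none of these letters, and Psmb7 is named only.

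The libraries had 19.2 M to 20.8 M counts each (M, counts in units of 1e6). The members together took 0.8291% to 1.10% of the counts in stimulated libraries and 0.387% to 0.561% in naive ones. The hairpin Mir17 of the deleted cluster had 2 counts in the 16 stimulated KO libraries, 140 in TG and 57 in WT, and in naive cells 3, 542 and 10. The row of the host transcript Mir17hg, which extends beyond the hairpins, went the other way in KO cells, at 80.5 to 144 CPM in stimulated KO, 20.2 to 64.0 in TG and 18.1 to 61.0 in WT libraries (CPM, counts scaled to library size), and at 36.0 to 54.0, 58.2 to 104 and 24.9 to 34.5 in naive ones. The sources used here do not say which part of the host transcript was deleted, so that row was not read as a check of the deletion. Cd4 stood at 596 CPM in WT cells after 48 h of the weak stimulus and at 1099 in WT naive cells. The summed level of 8 B cell markers averaged 32.8 to 40.7 CPM over the stimulated WT groups and 293 in WT naive cells, that of 11 myeloid markers 5.06 to 6.53 against 235, that of 6 dendritic markers 0.510 to 0.963 against 32.2, and that of 3 erythroid markers 0.598 to 4.27 against 314. The sum of 8 CD8 and NK markers was 31.3 to 34.5 CPM at 24 h, 124 to 129 at 48 h and 180 in naive cells. Nkg7 made up 97.8 CPM of it in WT cells after 48 h of the weak stimulus. The complement gene C1qa was at 0 in some stimulated groups. RNA of the B cell, myeloid, dendritic and erythroid markers was thus mainly in the naive libraries, and that of the CD8 and NK markers less so at 48 h. The part of such other cells in the differences between stimulated and naive cells was not tested.

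At rest, each immunoproteasome subunit stood above the constitutive subunit it replaces, as levels per length (RPKM, reads per kilobase of exon scaled to library size). In WT naive cells Psmb8 was at 266 ± 8.7 RPKM and its partner Psmb5 at 49.1 ± 4.0 (SD, n = 3). Psmb9 was at 145 ± 6.2 RPKM with Psmb6 at 87.1 ± 4.8, and Psmb10 at 91.5 ± 4.1 with Psmb7 at 23.5 ± 2.3. In the order of the 6 levels only Psmb10 and Psmb6 overlapped between libraries. The ratio of immunoproteasome to constitutive subunit was 5.43 for Psmb8 over Psmb5, 1.66 for Psmb9 over Psmb6 and 3.92 for Psmb10 over Psmb7. The exonic length used was 3230 bases for Psmb7 and 806 to 1270 bases for the other catalytic subunits. The size of the RPKM ratios and shares, here and below, rests on these lengths. Not divided by length, and scaled together with the stimulated sums described below, Psmb10 stood at 106 to 115 CPM and Psmb7 at 64.9 to 80.2 in WT naive libraries. Psmb8, Psmb9 and Psmb10 made up 75.9% ± 0.67 of the summed RPKM of the 6 catalytic subunits in WT naive cells, 75.3% ± 0.42 in TG naive cells (n = 4) and 75.3% ± 1.5 in KO naive cells (n = 3). Of the activators, Psme1 stood at 264 RPKM, Psme2 at 70.4, Psme3, the nuclear activator, at 56.6, and Psme4, a large activator known from histone breakdown, at 8.92. The row Psme2b, a near-identical copy of Psme2, stood at 240 CPM in WT naive cells. Reads could be split between both rows, so the value of Psme2 cannot be set against that of Psme1.

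After 24 h of activation in WT cells Psmb9 and Psmb10 stood below their partners, while Psmb8 stayed above Psmb5. By 48 h Psmb9 was again above Psmb6, and Psmb10 was still below Psmb7. After 24 h of the weak stimulus Psmb5 stood at 158 RPKM, Psmb6 at 212 and Psmb7 at 75.5, with Psmb8 at 269 ± 20.1, Psmb9 at 145 and Psmb10 at 39.4 ± 2.2 (SD, n = 4). The share of the immunoproteasome subunits in the 6 catalytic ones in WT cells was 75.9% ± 0.67 in the naive state, 53.1% ± 2.5 and 50.4% ± 3.2 after 24 h of the very weak and the weak stimulus, and 65.1% ± 3.1 and 64.2% ± 2.4 after 48 h. The lowest of the 3 naive libraries was at 75.1% and the highest of the 16 stimulated ones at 68.6%, so the states did not overlap. These shares are RNA levels and are given with no test. The ratio of Psmb10 to Psmb7 was 3.92 in naive cells, 0.569 and 0.524 at 24 h and 0.782 and 0.755 at 48 h, so Psmb10 stayed below its partner at all 4 stimulated states. The ratio of Psmb8 to Psmb5 was above 1 in all groups, at 1.86 and 1.71 at 24 h and 3.05 and 3.00 at 48 h in WT cells. The ratio of Psmb9 to Psmb6 was 0.784 and 0.691 at 24 h and 1.42 and 1.35 at 48 h. In bulk RNA, fewer cells of a type and less RNA per cell cannot be told apart.

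**Figure D1:**
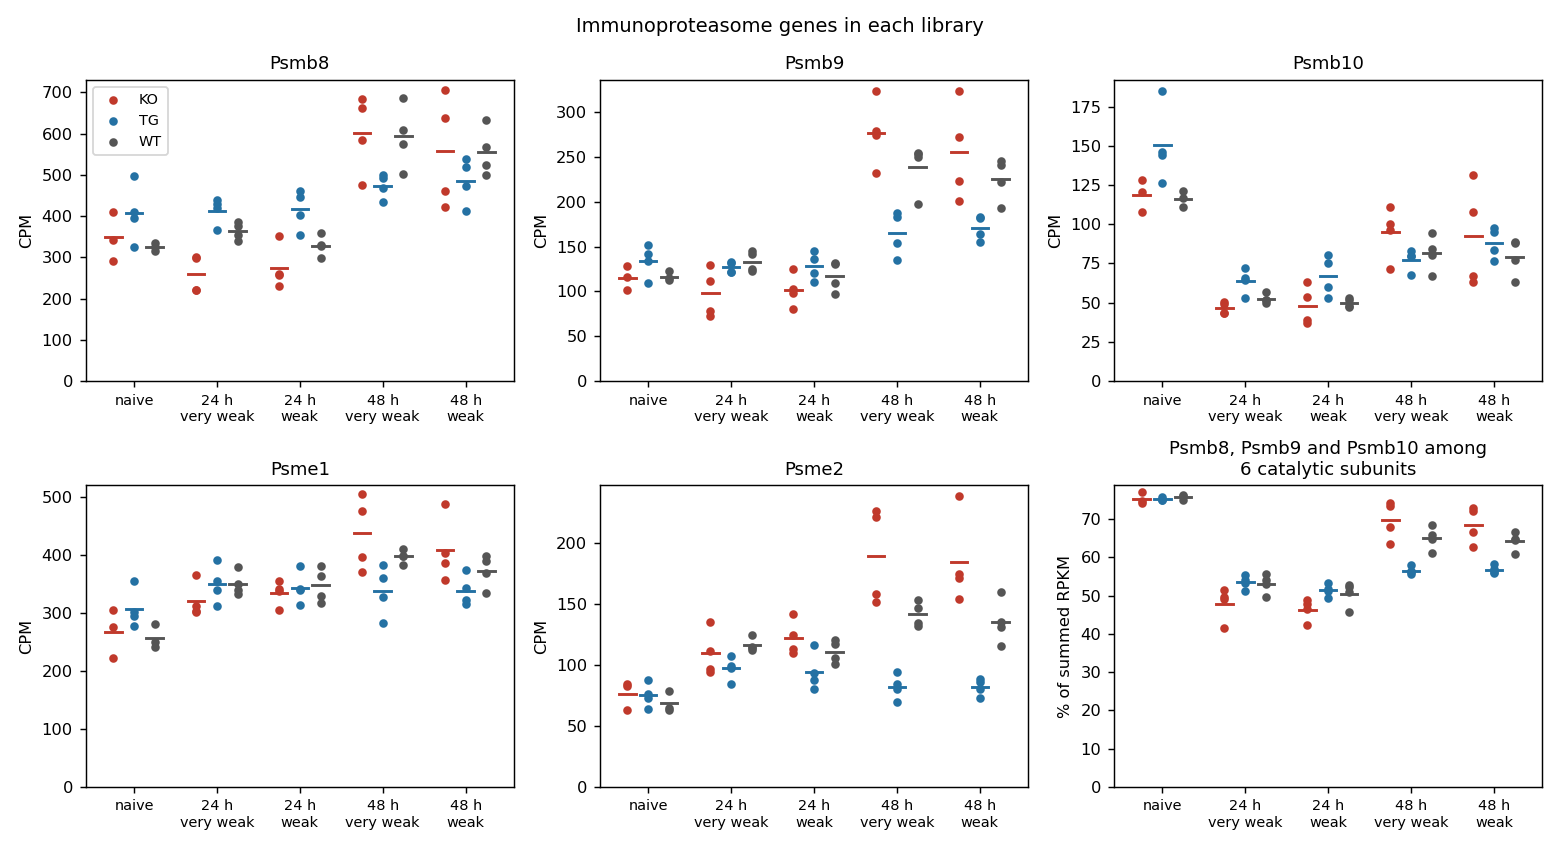
CPM of Psmb8, Psmb9, Psmb10, Psme1 and Psme2 in each library, and the share of Psmb8, Psmb9 and Psmb10 in the summed RPKM of the 6 catalytic subunits, by state on the x axis, with KO, TG and WT libraries left to right in each state and bars at the group means. In the share panel the TG libraries lie between 55.8% and 58.2% at 48 h, below the KO libraries at 62.7% to 74.3%.

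Nearly all other members rose together on activation. In edgeR's quasi-likelihood test with Benjamini-Hochberg adjustment over 13709 genes, called at adjusted p under 0.05, 41 of the 42 tested other members were higher than in WT naive cells after 24 h of the very weak stimulus, 42 after 24 h of the weak stimulus, 40 after 48 h of the very weak and 42 after 48 h of the weak stimulus. None was lower. Of all genes, 36.1%, 36.8%, 38.7% and 39.4% were called higher in these 4 comparisons in that order, and 40.2%, 40.7%, 39% and 38.9% lower. The other members' median log2 change was 1.44, 1.46, 1.34 and 1.34, beside -0.08, -0.09, 0.00 and 0.02 over all genes. The 4 comparisons share the same 3 naive libraries. The members not called were Psma8 in both very weak states and Psme4 after 48 h of the very weak stimulus (log2 0.18).

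After 24 h of the weak stimulus the largest of these changes were those of Psmg3, Psmd7, Psmd1 and Psme3. Psmg3, a chaperone of core assembly, had 66.3, 56.3, 58.1 and 62.0 CPM after 24 h of the weak stimulus, against 9.70, 9.97 and 9.001 in WT naive cells (log2 2.67, SE 0.155, edgeR adjusted p = 6.9e-21). Every stimulated library was above every naive one. Psmd1, one of the 2 large scaffold subunits of the cap, had 424, 433, 415 and 406 CPM, against 90.6, 85.3 and 83.5 (log2 2.28, SE 0.0986, adjusted p = 6.57e-26). Psmd2, the other scaffold, had 604, 587, 582 and 545 CPM, against 175, 156 and 171 (log2 1.79). Psmd7, the partner of the cap's deubiquitinase, had 364, 337, 343 and 319 CPM, against 70.9, 67.9 and 68.5 (log2 2.30). Psmb2 (log2 1.63) and, after 48 h, Psma1 (1.82), Psma4 (1.93) and Psma7 (1.80 after the very weak stimulus) were among the members with the smallest adjusted p. The activator Psme3 had 710, 702, 658 and 610 CPM after 24 h, against 153, 151 and 153 in naive cells (log2 2.14), and Psme3 was at 316, 348, 456 and 366 CPM after 48 h (log2 1.29).

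By role, the medians differed in size more than in direction. After 24 h and 48 h of the weak stimulus the median log2 change was 1.71 and 1.67 for the alpha subunits, 1.31 and 1.43 for the beta subunits, 1.43 and 1.26 for the ATPases, and 1.56 and 1.39 for the non-ATPase subunits of the cap. It was 1.53 and 1.27 for the chaperones of core assembly, 0.62 and 0.65 for those of cap assembly, and 0.81 and 0.40 for the inhibitor Psmf1. All genes of these classes were called in both states.

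**Figure D2:**
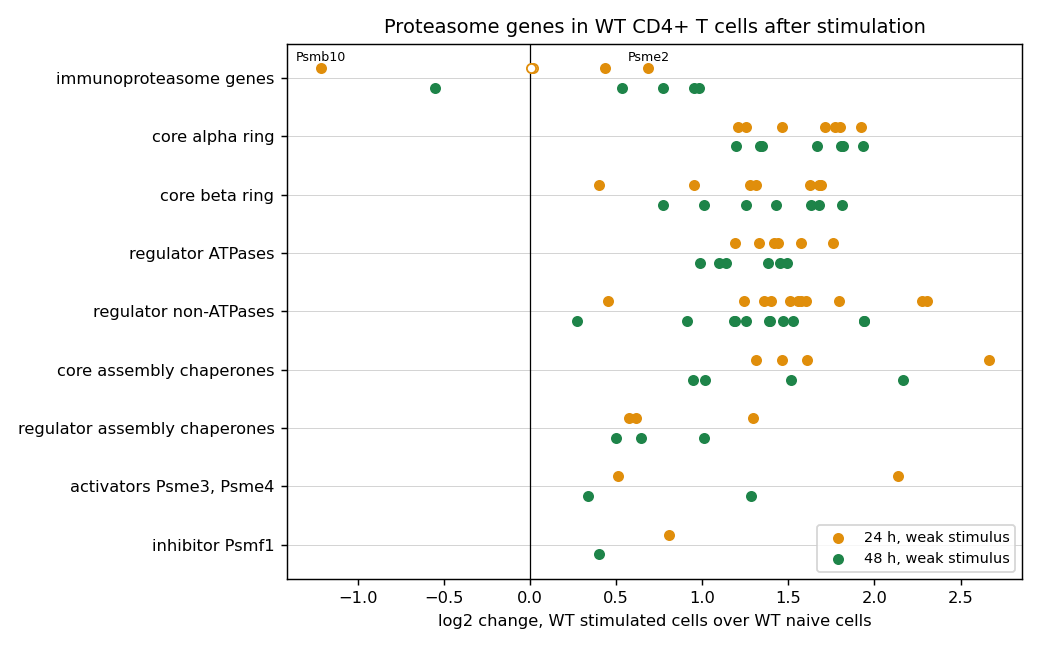
Log2 change of the members in WT stimulated over WT naive cells, grouped by role, after 24 h (orange) and 48 h (green) of the weak stimulus, with open points for members not called. The tissue-specific Psma8 and Psmb11 are not drawn. All members of the constitutive classes lie above 0, and Psmb10 is the only point well below it, at -1.22 and -0.55.

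The immunoproteasome genes went their own ways on activation. Psmb10 fell in all 4 comparisons. It had 47.9, 53.1, 51.6 and 47.5 CPM after 24 h of the weak stimulus, against 117, 111 and 121 in WT naive cells (log2 -1.22, SE 0.175, edgeR adjusted p = 2.35e-08). After 48 h of that stimulus Psmb10 had 88.4, 87.9, 62.9 and 77.5 CPM (log2 -0.55, SE 0.174, adjusted p = 0.00384). No stimulated library reached the lowest naive one. After the very weak stimulus the log2 change of Psmb10 was -1.14 at 24 h and -0.51 at 48 h (adjusted p = 9.54e-08 and 0.00722).

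Psmb8 and Psmb9 were not called at 24 h and were higher at 48 h. Psmb9 had 96.7, 109, 130 and 132 CPM after 24 h of the weak stimulus and 241, 246, 193 and 222 CPM after 48 h, against 122, 113 and 115 in WT naive cells. The 24 h libraries lay on both sides of the naive ones, and the 48 h libraries all lay above them (log2 0.00, adjusted p = 0.984, at 24 h and log2 0.95, SE 0.160, adjusted p = 6.9e-07, at 48 h). Psmb8 had 299, 327, 359 and 329 CPM after 24 h and 568, 633, 499 and 523 CPM after 48 h, against 336, 314 and 325 in naive cells (log2 0.02 and 0.77). After 48 h of the very weak stimulus the log2 change was 0.87 for Psmb8 and 1.03 for Psmb9, and at 24 h it was 0.16 and 0.19, not called.

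The activator genes rose in all 4 comparisons, by less than most other members. Psme1 rose by log2 0.45, 0.44, 0.63 and 0.54 after 24 h of the very weak and the weak stimulus and 48 h of the very weak and the weak stimulus. In the same order Psme2 rose by log2 0.76, 0.69, 1.04 and 0.98 (SE 0.149 to 0.150, edgeR adjusted p = 1.15e-05, 5.14e-05, 2.55e-08 and 9.53e-08). Psme2 had 100, 106, 120 and 117 CPM after 24 h of the weak stimulus, against 79.0, 64.7 and 62.7 in naive cells, with no overlap. Psme2 has a near-identical copy, Psme2b, with 338460 counts to the 129613 of Psme2 over all libraries, and reads could be split between both. With the 2 rows summed, the WT activation calls of Psme2 were kept at log2 0.40, 0.35, 0.67 and 0.63, in that order.

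When the counts of all 4 stimulated states were summed within a genotype and replicate number, all 47 tested members differed from naive cells in each genotype, 46 of them higher and Psmb10 lower. The share of all genes called higher was 38.3% in KO, 40.9% in TG and 39.7% in WT cells, and the share called lower was 36.7%, 39.2% and 37.5%. Psmb10 fell by 0.68, 0.89 and 0.70 on the log2 scale in KO, TG and WT cells. Psme2 rose by log2 1.06 in KO, 0.38 in TG and 0.99 in WT cells, and Psmb9 by 0.74, 0.27 and 0.74. The smaller TG changes depended on the scaling: with RLE factors Psmb8 (0.18), Psmb9 (0.18) and Psme1 (0.20) were no longer called (adjusted p = 0.198, 0.120 and 0.0664), and neither was Psmb8 in KO cells (0.29, adjusted p = 0.0558). With Psme2 and Psme2b summed, the TG value was 0.16 and not called (adjusted p = 0.129).

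Between 24 h and 48 h in WT cells the interferon-inducible beta subunits rose while the assembly and activator genes Psme3 and Psmg2 fell. Of 47 tested members, 4 were higher at 48 h and 6 lower after the very weak stimulus. After the weak stimulus the counts were 4 and 14. Of all genes 18.4% were higher and 16% lower with the very weak stimulus, and 22% and 19.4% with the weak one. The shares of members called were below those of all genes, save that of members lower with the weak stimulus, which was above. Psmb8 (log2 0.70 and 0.76), Psmb9 (0.84 and 0.95), Psmb10 (0.63 and 0.66) and Psmb1 (0.29 and 0.37) were higher under both strengths. Psme3 (-0.64 and -0.85), Psmg2 (-0.45 and -0.44), Psmd2 (-0.33 and -0.40), Psmf1 (-0.26 and -0.40), Psmd1 (-0.25 and -0.34) and Psmg3 (-0.33 and -0.50) were lower under both. Psme1 (0.18 and 0.10) and Psme2 (0.28 and 0.29) were not called (edgeR adjusted p = 0.1003 and 0.0771 for Psme2). Without WT weak 48 h replicate 3 Psme2 was called for the weak stimulus (log2 0.36). The other members' medians were -0.08 and -0.12, beside 0.00 and 0.02 over all genes.

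The same step was set side by side in the 3 genotypes after summing the 2 strengths for each genotype, time and replicate number, a comparison chosen after the data were seen. In KO cells all 5 immunoproteasome genes rose between 24 h and 48 h, in TG cells Psmb9 was called and, with the replicate number as a block, Psmb10 too, and in WT cells Psmb8, Psmb9, Psmb10 and Psme2. In all, 6 members were higher and 19 lower in KO cells, 4 and 8 in TG cells, and 5 and 12 in WT cells. Of 13217 genes, 23.9% were higher and 23.4% lower in KO cells, 23.1% and 21.2% in TG cells, and 23.8% and 21.8% in WT cells. The share of members higher was below that of all genes in each genotype. With the replicate number as a block, 6 members were higher and 24 lower in KO cells.

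Psmb9 had 320, 272, 239 and 225 CPM at 48 h in KO cells, against 113, 119, 77.0 and 91.5 at 24 h (log2 1.40, SE 0.132, edgeR adjusted p = 9.38e-08). In TG cells Psmb9 had 185, 152, 184 and 155 CPM at 48 h, against 117, 140, 133 and 122 at 24 h (log2 0.40, SE 0.130, adjusted p = 0.0148). In WT cells it had 244, 252, 196 and 237 CPM at 48 h, against 111, 116, 136 and 140 at 24 h (log2 0.89, SE 0.130, adjusted p = 1.73e-05). The 48 h sums lay above all 24 h sums of the same genotype in all 3, by the least in TG cells. Psmb8 rose by log2 1.10 in KO and 0.73 in WT cells, and in TG cells its change was 0.22 (adjusted p = 0.158). Psmb10 rose by 0.96 in KO and 0.64 in WT cells, and in TG cells its change was 0.35 (adjusted p = 0.0614). That of Psmb10 in TG cells was called with the block (log2 0.35, adjusted p = 0.0158) and without the 24 h replicate 2 or the 48 h replicate 4, and its leave-one-out range was 0.26 to 0.41.

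Psme2 had 228, 166, 189 and 159 CPM at 48 h in KO cells, against 130, 127, 104 and 104 at 24 h (log2 0.67, SE 0.108, adjusted p = 3.98e-05). In TG cells Psme2 had 90.3, 76.2, 86.8 and 76.9 CPM at 48 h, against 89.8, 93.5, 111 and 89.4 at 24 h (log2 -0.22, SE 0.108, adjusted p = 0.106). In WT cells it had 153, 136, 124 and 142 CPM at 48 h, against 106, 110, 123 and 116 at 24 h (log2 0.28, adjusted p = 0.0367). The groups did not overlap in KO and WT cells, and they overlapped in TG cells. The WT call was lost in 6 of 8 fits that left out 1 sum, each but 24 h replicate 3 and 48 h replicate 3 (log2 0.23 to 0.34, adjusted p up to 0.117). Psme1 rose by 0.35 in KO cells, and its change was -0.03 in TG and 0.14 in WT cells.

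The constitutive genes called were mostly lower at 48 h. Over all genes 23.4% were lower in KO, 21.2% in TG and 21.8% in WT cells. In TG and WT cells the counts of lower members given above are near those shares. The activator Psme3 fell by 0.80, 0.67 and 0.75 on the log2 scale in KO, TG and WT cells, and had 262 to 369 CPM at 48 h against 503 to 604 at 24 h in KO cells, 355 to 450 against 629 to 699 in TG cells, and 314 to 464 against 594 to 681 in WT cells. The core chaperone Psmg2 fell by 0.58, 0.40 and 0.45, and the cap scaffold Psmd2 by 0.43, 0.20 and 0.36. The ATPases of the cap had 5 of 6 lower in KO, 1 in TG and 2 in WT cells, and the non-ATPase subunits 6, 2 and 5 of 11. The beta subunit Psmb1 rose by 0.25, 0.31 and 0.32. In TG cells Psmb7 (0.27) and Psmc6 (0.34) also rose. The other members' median was -0.20 in KO, -0.02 in TG and -0.10 in WT cells, beside 0.01 over all genes in each.

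**Figure D3:**
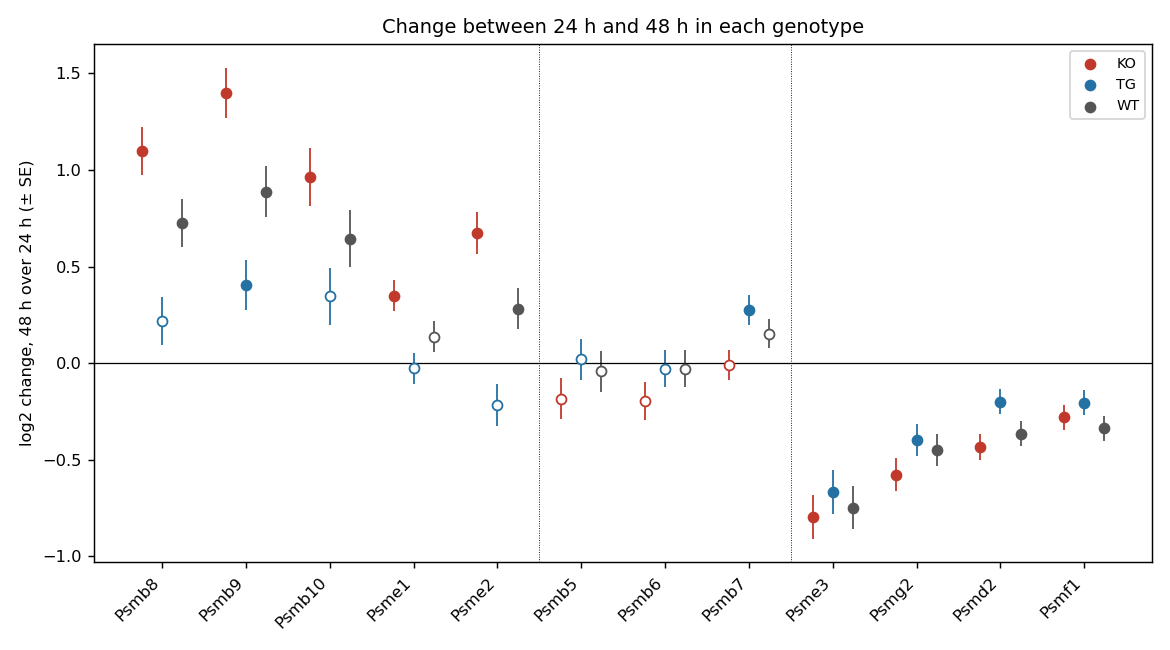
Log2 change from 24 h to 48 h with its standard error in KO, TG and WT cells, for the 5 immunoproteasome genes, the 3 constitutive catalytic subunits and Psme3, Psmg2, Psmd2 and Psmf1, from sums over both strengths, with filled points for called genes. The KO points of the immunoproteasome genes lie highest (Psmb9 at 1.40) and the TG points lowest (Psme2 at -0.22), while Psme3 lies between -0.80 and -0.67 in all 3 genotypes.

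The difference in this step between genotypes was itself tested, and no member passed. For the change of the KO effect from 24 h to 48 h edgeR called 0 members, and so did DESeq2 and the fit with the replicate block, with 3 at an unadjusted p under 0.05. For that of the TG effect the count was 0 by all of these, with 7 unadjusted. Of all genes 0% and 0.00757% were called. The values were Psmb9 0.51, Psme2 0.39, Psmb8 0.37, Psmb10 0.32 and Psme1 0.21 for KO cells, and Psmb8 -0.51, Psme2 -0.50 (SE 0.153, adjusted p = 0.338), Psmb9 -0.48, Psmb10 -0.30 and Psme1 -0.17 for TG cells. The step is thus larger in KO and smaller in TG cells in its value for each of the 5 genes, with no call for the difference.

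The strength of the anti-CD3 coat made no difference that the test could detect. Weak against very weak stimulus in WT cells gave 0 members called by edgeR and by DESeq2 at both times, with 0 at 24 h and 1 at 48 h at an unadjusted p under 0.05, and 0% and 0% of all genes. The immunoproteasome genes' median log2 difference was -0.07 at 24 h and -0.08 at 48 h, and that of the other members 0.04 and -0.02.

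Few members were called between KO and WT cells. KO and TG cells also carry the Cre that WT labels do not name, so its part cannot be told apart from that of the cluster. KO against WT cells gave no called member in the naive state, at 24 h with either strength, or at 48 h with the very weak one, and 1 at 48 h with the weak one. DESeq2 called 0, 1, 0, 3 and 2 in the naive, very weak 24 h, weak 24 h, very weak 48 h and weak 48 h states. At an unadjusted p under 0.05 there were 1, 6, 2, 10 and 9 members. The share of all genes called in either direction was 0.0365% in naive cells, 1.06% and 1.4% after 24 h of the very weak and the weak stimulus, and 4.63% after 48 h of the very weak one, and the share called higher after 48 h of the weak one was 3.05%.

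The 1 call was Psme2, with 239, 175, 154 and 171 CPM in KO cells after 48 h of the weak stimulus, against 160, 135, 116 and 131 in WT cells (log2 0.45, SE 0.135, edgeR adjusted p = 0.0413). The groups overlapped. The call was lost without KO replicate 1 (log2 0.30, adjusted p = 0.231) or WT replicate 2 (0.44, 0.0974), 3 (0.38, 0.140) or 4 (0.43, 0.102) of that state, and with no filter on low counts (adjusted p = 0.0568). After 48 h of the very weak stimulus Psme2 had 221, 158, 227 and 151 CPM in KO cells, against 147, 134, 132 and 153 in WT cells (log2 0.42, adjusted p = 0.0595), and was called without KO replicate 2 or 4 of that state. With the replicate number as a block Psme2 was called in both (0.41, adjusted p = 0.0344, very weak and 0.44, 0.0215, weak), the ATPase Psmc1 was lower in both (-0.31, 0.0381 and -0.33, 0.0271), and the cap subunit Psmd3 was lower with the very weak stimulus (-0.36, 0.0192). At 48 h all 5 immunoproteasome genes had positive values under both strengths, at log2 0.00 to 0.45, while 39 and 38 of the 42 other members had negative ones. The other members' medians were -0.13 and -0.12, beside 0.00 over all genes.

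At 24 h of the very weak stimulus the values of Psmb8 and Psmb9 ran the other way, and neither gene was called in the main fit. Psmb8 had 301, 297, 220 and 222 CPM in KO cells, against 340, 355, 386 and 376 in WT cells, without overlap (log2 -0.49, SE 0.139, edgeR adjusted p = 0.0734). With the replicate block it was called (-0.50, adjusted p = 0.0246), as it was without KO replicate 1 of that state (-0.56). Psmb9 had 130, 112, 73.0 and 78.3 CPM in KO cells, against 125, 122, 141 and 145 in WT cells, where KO replicate 1 lay within the WT range (log2 -0.44, adjusted p = 0.151, and -0.60 without it). The 2 KO libraries with the higher replicate numbers were the lower ones for both genes.

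In TG naive cells 7 members were higher than in WT naive cells and none lower, while 4.33% of all genes were called higher. The beta subunit Psmb2 had 103, 106, 90.1 and 117 CPM in TG naive cells, against 81.2, 75.9 and 67.4 in WT naive cells (log2 0.47, SE 0.101, edgeR adjusted p = 0.00154), and its call was kept in all 7 fits that left out 1 library. Psmd8, a cap subunit, had 156, 155, 153 and 184 CPM in TG naive cells, against 134, 116 and 123 (log2 0.38, adjusted p = 0.00722). The others were Psma4 (0.47), Psma6 (0.39), Psmb7 (0.42), the ATPase Psmc1 (0.43) and the core chaperone Psmg1 (0.45). The count was 2 without TG naive replicate 4 and 10 without TG naive replicate 3. No immunoproteasome gene was called, with log2 values of 0.13 (Psme2) to 0.37 (Psmb10). The summed B cell markers were at 286 CPM in TG and 293 in WT naive cells, the myeloid markers at 185 and 235, and the dendritic markers at 51.5 and 32.2, and their part in these differences was not tested.

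At 24 h no member differed between TG and WT cells in edgeR or DESeq2 under either strength, with 2 members with the very weak and 6 with the weak stimulus at an unadjusted p under 0.05, while 3.73% and 4.81% of all genes were called. With the replicate block the inhibitor Psmf1 was lower with the weak stimulus (log2 -0.21, adjusted p = 0.035).

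At 48 h the activator gene Psme2 was lower in TG cells under both strengths. It had 94.2, 69.2, 84.0 and 80.3 CPM in TG cells after the very weak stimulus, against 147, 134, 132 and 153 in WT cells (log2 -0.79, SE 0.136, edgeR adjusted p = 5.18e-05). After the weak stimulus Psme2 had 85.9, 80.7, 88.6 and 73.2 CPM in TG cells, against 160, 135, 116 and 131 in WT cells (log2 -0.73, SE 0.136, adjusted p = 0.0002). No TG library reached the lowest WT one, and both calls were kept in every fit that left out 1 library. Its partner Psme1 had log2 values of -0.23 and -0.14, not called. The ratio of Psme2 to Psme1 in RPKM was 0.242 ± 0.0061 in TG and 0.355 ± 0.018 in WT cells after the very weak stimulus, and 0.242 ± 0.014 in TG and 0.363 ± 0.033 in WT cells after the weak one (SD, n = 4). These ratios leave out the copy Psme2b, so they compare genotypes and do not give the level of Psme2 against Psme1. The copy Psme2b moved the same way: it stood at 199 and 208 CPM in TG cells, against 350 and 342 in WT cells (log2 -0.82 and -0.71, both called). Since reads could be split between both rows, the values of Psme2b are not independent of those of Psme2.

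Psmb9 had 187, 135, 183 and 155 CPM in TG cells after 48 h of the very weak stimulus, against 250, 254, 198 and 255 in WT cells, without overlap (log2 -0.54, SE 0.144, adjusted p = 0.0085). After the weak stimulus it had 182, 164, 183 and 155 CPM, against 241, 246, 193 and 222 (log2 -0.40, adjusted p = 0.0714), and was called without WT weak 48 h replicate 3 (-0.46). Psmb8 (-0.33 and -0.19) and Psmb10 (-0.07 and 0.16) were not called. The share of Psmb8, Psmb9 and Psmb10 in the 6 catalytic subunits was 55.8% to 57.9% over TG libraries after the very weak stimulus, against 61.1% to 68.6% over WT libraries, and 55.9% to 58.2% after the weak one, against 60.8% to 66.6%.

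Of 47 tested members, 7 were higher and 2 lower in TG cells after 48 h of the very weak stimulus. After the weak one 2 were higher and 1 lower. Of all genes 6.08% were higher and 7.24% lower with the very weak stimulus, and 4.3% and 5.66% with the weak one. The share of members higher was above that of all genes with the very weak stimulus and near it with the weak one. The share of members lower was below that of all genes with both. The activator Psme4 had 119, 149, 133 and 142 CPM in TG cells after the very weak stimulus, against 92.5, 97.5, 113 and 99.2 in WT cells (log2 0.44, SE 0.0984, adjusted p = 0.00164). The scaffold Psmd1 had 398, 426, 426 and 427 CPM in TG cells, against 315, 315, 374 and 318 (log2 0.34, adjusted p = 0.00393). Neither gene's groups overlapped, and both calls were kept in every fit without 1 library. The other calls there, Psmc1 (0.32), Psmc6 (0.37), Psmd5 (0.24), Psmd6 (0.25) and Psmd12 (0.27), were each lost in 5 to 7 of the 8 such fits (adjusted p up to 0.206). After the weak stimulus the ATPase Psmc1 had 304, 317, 326 and 265 CPM in TG cells, against 233, 220, 239 and 211 (log2 0.42, SE 0.105, adjusted p = 0.00452), and Psmd1 was called (0.27, adjusted p = 0.0329) but lost in 6 of the 8. With the replicate block the cap chaperone Psmd9 (0.31, adjusted p = 0.0258) and the core chaperone Psmg3 (0.34, 0.0496) were also called there, 5 members in all. The other members' medians were 0.12 and 0.18, with 35 and 36 of 42 positive.

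In the sums over the 4 stimulated states, TG against KO cells gave the widest difference of the genotype comparisons. Of the 42 tested other members 21 were higher in TG cells and none lower, and of the immunoproteasome genes Psme2 and Psmb9 were lower. Of all genes 17.8% were called higher and 16.5% lower, so the share of members higher was above that of all genes. The other members' median log2 difference was 0.22, beside 0.01 over all genes. Both genotypes carry the Cre.

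The 4 largest of these differences were those of the cap subunits Psmd3, Psmc1, Psmd12 and Psmd7. Psmd3, a lid subunit of the cap, had 336.6, 391.8, 371.7 and 322.8 CPM in the TG sums, against 222.0, 250.6, 274.4 and 231.5 in the KO sums (log2 0.54, SE 0.0781, edgeR adjusted p = 1.73e-05). The WT sums lay at 284, 317, 319 and 292, above all KO and below all TG values. Psmc1 had 329, 312, 339.7 and 290.5 CPM in the TG sums, against 222.7, 201.9, 249.4 and 202.7 in the KO sums (log2 0.54, SE 0.0947, adjusted p = 1.54e-04). Psmd12 had 260.9, 261.8, 254.3 and 248.7 CPM, against 202, 191, 188 and 170 (log2 0.45, adjusted p = 2.03e-04). Psmd7 was at 0.42, the core chaperone Psmg3 at 0.39 and the beta subunit Psmb7 at 0.37, and Psmd6, Psmd1, Psmb6, Psmc6 and Psma5 were each at 0.36. By role, 7 of the 11 non-ATPase cap subunits were higher, 3 of 6 ATPases, 3 of 7 alpha subunits, 3 of 7 beta subunits, 2 of 4 core chaperones, 1 of 3 cap chaperones and both Psme3 (0.31) and Psme4 (0.20). The inhibitor Psmf1 was at -0.16, and was called lower with the replicate block (adjusted p = 0.0335). Leaving out 1 sum gave 15 to 24 called members.

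Psme2 had 93.2, 86.9, 104 and 85.9 CPM in the TG sums, against 178, 147, 155 and 137 in the KO sums (log2 -0.74, SE 0.107, adjusted p = 1.76e-05). Psmb9 had 156, 149, 167 and 143 CPM in the TG sums, against 217, 197, 167 and 164 in the KO sums (log2 -0.28, adjusted p = 0.0326). The groups of Psme2 were apart and those of Psmb9 overlapped, and the Psmb9 call was lost without KO replicate 1 or 2 or TG replicate 1, 2 or 4 (log2 -0.33 to -0.20, adjusted p up to 0.133). Psmb8 (0.11), Psmb10 (0.11) and Psme1 (-0.10) were not called. For Psmb9 and Psmb8 these sums join times at which TG and KO cells stood in opposite order. At 24 h Psmb9 was at 117 to 140 CPM in TG and 77.0 to 119 in KO cells, and at 48 h at 152 to 185 and 225 to 320. Psmb8 was at 361 to 454 CPM in TG and 228 to 326 in KO cells at 24 h, and at 425 to 512 and 462 to 688 at 48 h. TG was not tested against KO by time.

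**Figure D4:**
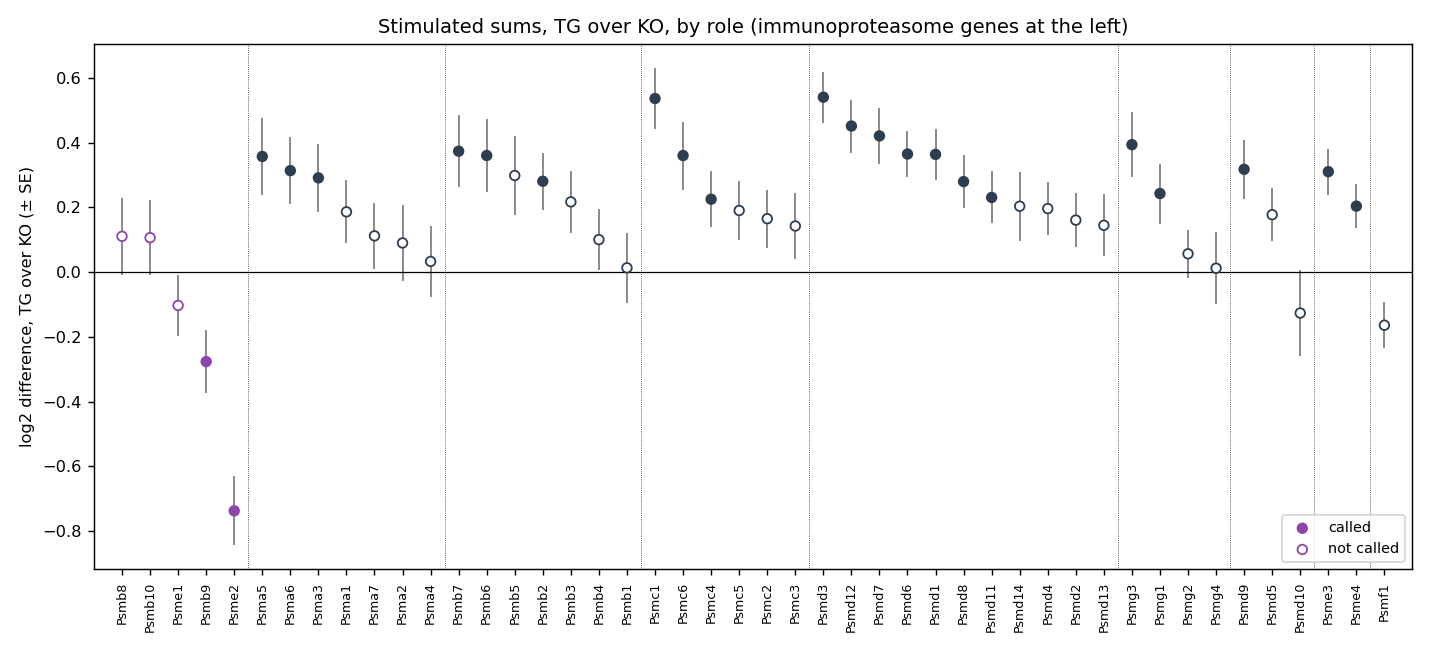
Log2 difference of TG over KO cells with its standard error in the sums over the stimulated states, by role, with filled points for called members and the immunoproteasome genes in purple at the left (Psma8 is not drawn). Most other members lie above 0, up to 0.54 for Psmd3 and Psmc1, and Psme2 lies lowest at -0.74.

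Against WT, the same sums gave 1 member each. In KO cells Psmd3 was lower (log2 -0.31, SE 0.0780, edgeR adjusted p = 0.0295), with 1.5% of all genes called lower. That call was lost without KO replicate 1 or 4 or WT replicate 2, 3 or 4 (log2 -0.37 to -0.26, adjusted p up to 0.0961). In TG cells Psme2 was lower (log2 -0.50, SE 0.106, adjusted p = 0.00404), with 4.99% of all genes called lower, and the WT sums of Psme2 were 133, 126, 130 and 135 CPM. With the replicate block the TG cells had 3 called, the others being Psmc1 (0.30, adjusted p = 0.0491) and Psmd3 (0.23, 0.0419). The KO and TG comparisons share the WT samples.

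Whether the difference from WT was itself larger or smaller in stimulated than in naive cells was tested next, and it was called for 1 member in TG cells and for none in KO cells. In TG cells it was Psme2 (log2 -0.62, SE 0.159, edgeR adjusted p = 0.0323), with 1.87% of all genes called lower. Naive TG cells had 73.1, 75.9, 63.7 and 88.0 CPM of Psme2, against 79.0, 64.7 and 62.7 in naive WT cells, and those overlapped. The call was lost in 11 of the 15 fits that left out 1 column, among them those without TG naive replicate 1, 2 or 4, TG stimulated replicate 1, 2 or 4 and WT naive replicate 2 or 4 (log2 -0.74 to -0.54, adjusted p up to 0.106). It was also lost with Psme2 and Psme2b summed (-0.48, adjusted p = 0.0577). With the replicate block it was kept (-0.62, adjusted p = 0.0202) and Psmb9 was called too (-0.49, 0.0481). For KO cells 0 members were called by edgeR and DESeq2, with 10 at an unadjusted p under 0.05 and 0.0132% of all genes called. Of the 42 other members 41 had negative values in KO cells, at a median of -0.25 beside -0.02 over all genes.

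Intronic counts, which come mostly from unspliced RNA, were tested in the same sums, and 46 members had enough of them. In WT cells 34 were higher after stimulation and none lower, with 32.8% of all genes called higher. Psmd1 had the smallest adjusted p of the other members (log2 1.51, SE 0.132, edgeR adjusted p = 7.49e-10). Psme1 (1.32), Psmb8 (0.89) and Psme2 (0.43, adjusted p = 0.0352) rose, with the Psme2 call lost without WT naive replicate 1 or 2 or WT stimulated replicate 3 or 4 (log2 0.31 to 0.60), and Psmb9 was at 0.09 (adjusted p = 0.629), called without WT naive replicate 4 (0.40). With each kind of count scaled to its own total, the exonic and intronic levels of Psmb10 went in opposite directions. Its intronic counts were at 10.8, 14.8, 16.4 and 12.6 CPM in the stimulated WT sums, against 7.63, 8.08 and 12.3 in naive cells (log2 0.55, SE 0.222, adjusted p = 0.0368), while its exonic counts fell by 0.70. The intronic groups overlapped, and the intronic call was lost without WT naive replicate 1 or 2 or WT stimulated replicate 2, 3 or 4 (log2 0.43 to 0.80, adjusted p up to 0.154), with RLE factors (0.44, adjusted p = 0.0926) and with the replicate block (0.47, 0.0604). Intronic counts made up 12.4% to 18.4% of the exonic and intronic total in stimulated libraries and 22.6% to 30.7% in naive ones. The intronic changes on stimulation are thus relative to an intronic total that was itself smaller in stimulated cells. Unscaled, Psmb10 had 72, 87 and 98 intronic counts in the naive WT libraries and 26 to 59 in each stimulated WT library.

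For genotype, Psme2 was the 1 member called in intronic counts. It had 20.1, 23.1, 27.8 and 21.0 CPM in the TG sums, against 31.8, 34.8, 44.4 and 37.0 in the WT sums, without overlap (log2 -0.69, SE 0.156, edgeR adjusted p = 0.0178), and 1.04% of all genes were called lower. The call was lost without TG replicate 1, 2 or 4 or WT replicate 3 or 4 (log2 -0.79 to -0.59, adjusted p up to 0.106). In KO against WT sums edgeR and DESeq2 called 0 members, with 1 at an unadjusted p under 0.05 and 0.0767% of all genes called. Psme2 had 46.4, 43.0, 59.4 and 50.1 CPM in the KO sums (log2 0.43, adjusted p = 0.574), and 3 of the 4 KO values lay above all WT values. The intronic order of the genotypes, KO then WT then TG, was the exonic one.

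**Figure D5:**
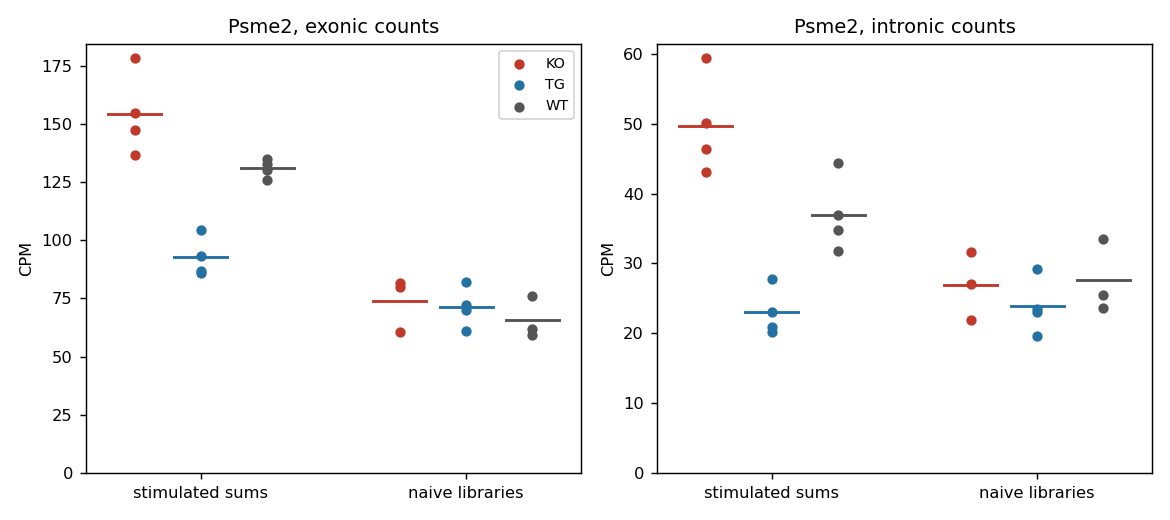
Exonic and intronic CPM of Psme2 in each sum over the stimulated states (left) and each naive library (right) of KO, TG and WT cells. In the stimulated sums the TG values lie lowest on both scales, at 85.9 to 104 CPM exonic and 20.1 to 27.8 CPM intronic.

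Genes that work beside the proteasome were counted from lists chosen with earlier results of these data known. Of 21 tested genes of proteasome assembly, docked enzymes, shuttles and regulators, 14, 15, 14 and 14 were higher and 4, 3, 2 and 2 lower in the 4 WT activation comparisons, at medians of log2 0.81, 0.72, 0.56 and 0.50. Over all genes 36.1% to 39.4% were higher and 38.9% to 40.7% lower. After 24 h of the weak stimulus the deubiquitinase Uchl5 (2.51), the proteasome-bound thioredoxin-like gene Txnl1 (2.17), the shuttle Rad23b (1.65) and the assembly factor Pomp (1.65) were higher. Rad23b was also lower in KO than in WT cells at 48 h (-0.40 and -0.43 with the very weak and the weak stimulus) and higher in TG than in WT cells (0.42 and 0.29). In TG against KO sums 13 of the 21 were higher and none lower, at a median of 0.31, with 17.8% of all genes higher and 16.5% lower.

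The genes of MHC class I presentation had, in the sums over strengths, 10 of 14 higher and 1 lower at 48 h than at 24 h in KO cells, 1 and 4 in TG cells, and 7 and 2 in WT cells, at medians of log2 0.99, -0.20 and 0.42. Over all genes 23.9%, 23.1% and 23.8% were higher and 23.4%, 21.2% and 21.8% lower, and the TG count of 4 lower is near that share. At 48 h 6 of the 14 were lower and 1 higher in TG than in WT cells with the very weak stimulus, and 5 lower with the weak one, while 7.24% and 5.66% of all genes were lower. The peptide loading factor Tapbp was lower (-1.08 and -0.94), as were the transporter genes Tap1 (-0.55 and -0.52) and Tap2 (-0.55 and -0.52) and Nlrc5 (-0.73 and -0.82), an activator of MHC class I genes. Tapbp was higher in KO than in WT cells at 48 h (0.64 and 0.63). Tap1 and Tap2 lie beside Psmb9 and Psmb8 on chromosome 17. Of 6 genes of ubiquitin and its activating enzymes 2 were higher and 2 lower in each WT activation comparison, near the shares over all genes given above.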

How the data were processed

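Read counts per gene, exonic and intronic, of 58 poly(A) RNA libraries (TruSeq stranded, single-end) were used as the authors deposited them, as whole-number counts per Entrez gene. The genome was mm10, with STAR 2.5.2a, edgeR 3.24.3 under R 3.5, and FastQC 0.11.5, per the submitters' processing notes. Which program counted the reads, and whether by strand, is not given in the sources used here. Near-identical copies and overlapping or antisense genes may therefore share reads. No 2 libraries held identical values.

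Counts were fitted with edgeR 4.0.16 in R 4.3.3 (TMM factors of 0.939 to 1.06, filterByExpr, quasi-likelihood F test, Benjamini-Hochberg adjustment over all genes tested). The 58 libraries and 15 groups formed 1 fit of 13709 genes with 43 residual degrees of freedom. A second fit (15160 genes, 16 degrees of freedom) took 22 columns, 12 sums over the 4 stimulated states of a genotype and replicate number and the 10 naive libraries, and another took the same columns of intronic counts (14336 genes). A further fit took 24 sums over both strengths and was added after the data were seen. CPM use TMM-scaled totals, and RPKM divide them by the exonic length in the deposited table. A standard error is the log2 fold change divided by the square root of F. The edgeR step was tested on simulated data with known fold changes. DESeq2 1.42.0, RLE factors, no filter, the replicate block, replicates 1 and 2 or 3 and 4 alone, averaged libraries, the Psme2 copy summed in, and leaving out each library or sum were the alternatives.

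The members and lists were chosen with earlier results of these data known. Named with full values are the 5 immunoproteasome genes and, per comparison, up to 6 other called members and up to 4 of each list by smallest adjusted p. A gene that this rule names in the list of MHC class I presentation is not reported here by name. The labels do not say that libraries of a group came from separate mice, so p-values measure the spread between these libraries. Same-numbered libraries of different genotypes deviated together in all 4 stimulated states (correlations of 0.132 to 0.625, every pair over 0.1), as they did between strengths, in the genotype comparisons of the sums and between times in KO sums (0.218 to 0.345). They were read as paired there. In the TG and WT sums between times 3 of 4 pairs passed 0.1, and those were not read as paired. Blocked values stand beside the results they change for the immunoproteasome genes and for the genotype comparisons. Promoter motifs were searched in 21680 RefSeq promoters of 17965 genes, with 43 promoters of 40 members matched by Entrez gene number.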

Additional observations from a re-analysis of the deposited data

Results flagged for a closer look

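Psmb9 in WT cells after 48 h of the very weak stimulus had 1 library, replicate 3, at 198 CPM, far from the other 3 at 250 to 255 CPM. This was the 1 flag among 78 sets of libraries tested, where chance alone flags about 1 in 20.

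The difference between TG and WT cells in Psme2 was itself different between stimulated and naive cells, at a log2 change of -0.62 (edgeR adjusted p = 0.0323), with the values and the fits that lose the call given above.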

How the results depend on the processing

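Counts of called members are given with the main count last. With the replicate block they were 1, 3 and 2 for KO against WT cells at very weak 24 h, very weak 48 h and weak 48 h (0, 0 and 1), 1 and 5 for TG against WT cells at weak 24 h and weak 48 h (0 and 3), 3 for TG against WT sums (1) and 2 for the change of the TG effect from naive to stimulated cells (1). With replicates 3 and 4 alone they were 2 for KO at very weak 24 h (0) and 0 at weak 48 h (1), 0, 1 and 0 for TG in naive cells, at very weak 48 h and at weak 48 h (7, 9 and 3), 3 and 4 for WT 48 h against 24 h with the very weak and weak stimulus (10 and 18), 0, 0 and 6 for the sums of KO against WT, TG against WT and TG against KO (1, 1 and 23), 0 for the change of the TG effect (1), 9 and 0 for intronic WT stimulation and intronic TG against WT (34 and 1), and 9, 4 and 7 for 48 h against 24 h in KO, TG and WT sums (25, 12 and 17). With replicates 1 and 2 alone they were 2 for TG naive (7), 0 and 2 for KO and TG against WT sums (1 and 1), 0 for the change of the TG effect (1), 0 for intronic TG against WT (1) and 6 for 48 h against 24 h in TG sums (12). With all stimulated libraries averaged as separate replicates they were 14, 20 and 38 for KO against WT, TG against WT and TG against KO (1, 1 and 23) and 3 for the change of the TG effect (1). DESeq2 gave 1, 3 and 2 for KO at very weak 24 h, very weak 48 h and weak 48 h, 2 and 5 for KO and TG against WT sums, and 3 for the change of the TG effect. No filter gave 0 for KO at weak 48 h and 5 for TG at very weak 48 h. Psme2 and its copy summed gave 1 for KO at very weak 48 h and 0 for the change of the TG effect. The cause was not tested.

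Leaving out 1 library or sum gave 0 to 4 for the change of the TG effect, 0 to 1 and 1 to 3 for KO and TG against WT sums, 15 to 24 for TG against KO, 0 to 1 for intronic TG against WT, 0 to 2, 0 to 7 and 0 to 2 for KO at very weak 24 h, very weak 48 h and weak 48 h, and 2 to 10, 4 to 7 and 2 to 5 for TG in naive cells, at very weak 48 h and at weak 48 h. The value of Psmb8 in stimulated against naive KO cells was log2 0.35, and -0.0785 with replicates 3 and 4 alone (adjusted p = 0.779). RLE factors moved the median of all genes by less than 0.1 in every comparison. Counts of 2 or 3 libraries a group, and few intronic counts, limit what could be called.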
